A study of Arabidopsis thaliana and Marchantia polymorpha with 6 samples.

Results

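The Aux/IAA genes of Arabidopsis thaliana were examined for binding events of the transcription factors PIF4 and HY5. Members were the protein-coding genes of the TAIR10.1 gene table with a symbol or synonym made of IAA and a number, and 32 of 27444 protein-coding genes on the 5 nuclear chromosomes fitted. Of these, 29 are Aux/IAA genes and 3 are auxin response factor genes, ARF5, ARF7 and ARF19, which the table also lists under old IAA numbers. The label of repressor genes does not hold for those 3, and they are given apart. The events come from DAP-seq, in which a recombinant protein on beads selects fragments of naked genomic DNA. AtPIF4 and AtHY5 had 1 library each, both made with DNA of Col-0 seedlings 10 days old, cut to a mean of 200 bp. The series has 6 samples, and the Arabidopsis input and the Marchantia libraries were not used here. No chromatin, partner protein or plant factor is present in such an assay, so an event shows affinity for DNA and not occupancy in a seedling. With 1 library per protein no value has a replicate error, and intervals cover counting error only.

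Aux/IAA proteins hold auxin response factors (ARFs) inactive by bringing TOPLESS corepressors to their target genes. Auxin joins an Aux/IAA protein to a receptor of the TIR1/AFB family through a short degron, and the repressor is then degraded. Many Aux/IAA genes are themselves switched on by auxin, which closes a feedback loop. PIF4, a bHLH factor, promotes elongation in warmth and shade, partly through auxin, and IAA19 and IAA29 are known as genes that PIF proteins act on in seedlings. HY5, a bZIP factor, promotes development in light, and IAA7 and IAA14 have been described as genes whose expression it favours.

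Altogether 6699 events had been called for AtPIF4 and 16825 for AtHY5. The read depth behind them is unknown. The score is the authors' own value per event, and its scale is not stated. It was therefore read as the percentage of events in the same list with a lower score. Scores of the 2 proteins were not set against each other. An event counted for a gene when its centre lay inside the gene or within 1000 bp of either end. Coordinates are 1-based, on the build TAIR10 named for the lists.

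By that measure the share of members with an event was close to that of all protein-coding genes for AtPIF4. For AtHY5 it was lower, with the share of all genes still inside the interval of the members. An AtPIF4 event was found at 8 of the 32 members, or 25.0% (95% Wilson interval 13.3 to 42.1), against 23.1% of all protein-coding genes. An AtHY5 event was found at 12 of 32, or 37.5% (22.9 to 54.7), against 47.7% of all protein-coding genes. Events of both proteins lay at 5 members, or 15.6%, against 17.0% of all genes. At least 1 event of either protein was present at 15 members, or 46.9%, against 53.8% of all genes, which left 17 with none. The shares of all genes lay inside the Wilson intervals of the members. With events above the median score alone, 4 of 32 members had an AtPIF4 event, against 12.6% of all genes, and 8 of 32 an AtHY5 event, against 27.9%.

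Gene length and spacing were set beside these counts. Aux/IAA genes are compact, from 986 to 3137 bp with a median of 1740 bp, against 2078 bp over all genes. Their neighbours are distant. The gaps to the nearest protein-coding gene on both sides summed to a median of 5187 bp, against 1855 bp over all genes, and 15 of the 29 lay in the widest of 5 equal classes of all genes by this sum. All genes were also divided into 5 classes of length. At the shares of their own length and gap classes, the 32 members would hold 7.42 genes with an AtPIF4 event and 15.2 with an AtHY5 event, where 8 and 12 were counted.

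Without the 3 ARF genes, AtPIF4 events lay at 7 of 29 Aux/IAA genes (24.1%) and AtHY5 events at 11 of 29 (37.9%). Both proteins had events at IAA5, IAA28, IAA33 and IAA34. Only AtPIF4 had them at IAA2, IAA7 and IAA11. Only AtHY5 had them at IAA6, IAA15, IAA16, IAA17, IAA29, IAA30 and IAA32. The other 15 had none in the window: IAA1, IAA3, IAA4, IAA8, IAA9, IAA10, IAA12, IAA13, IAA14, IAA18, IAA19, IAA20, IAA26, IAA27 and IAA31.

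**Figure D1:**
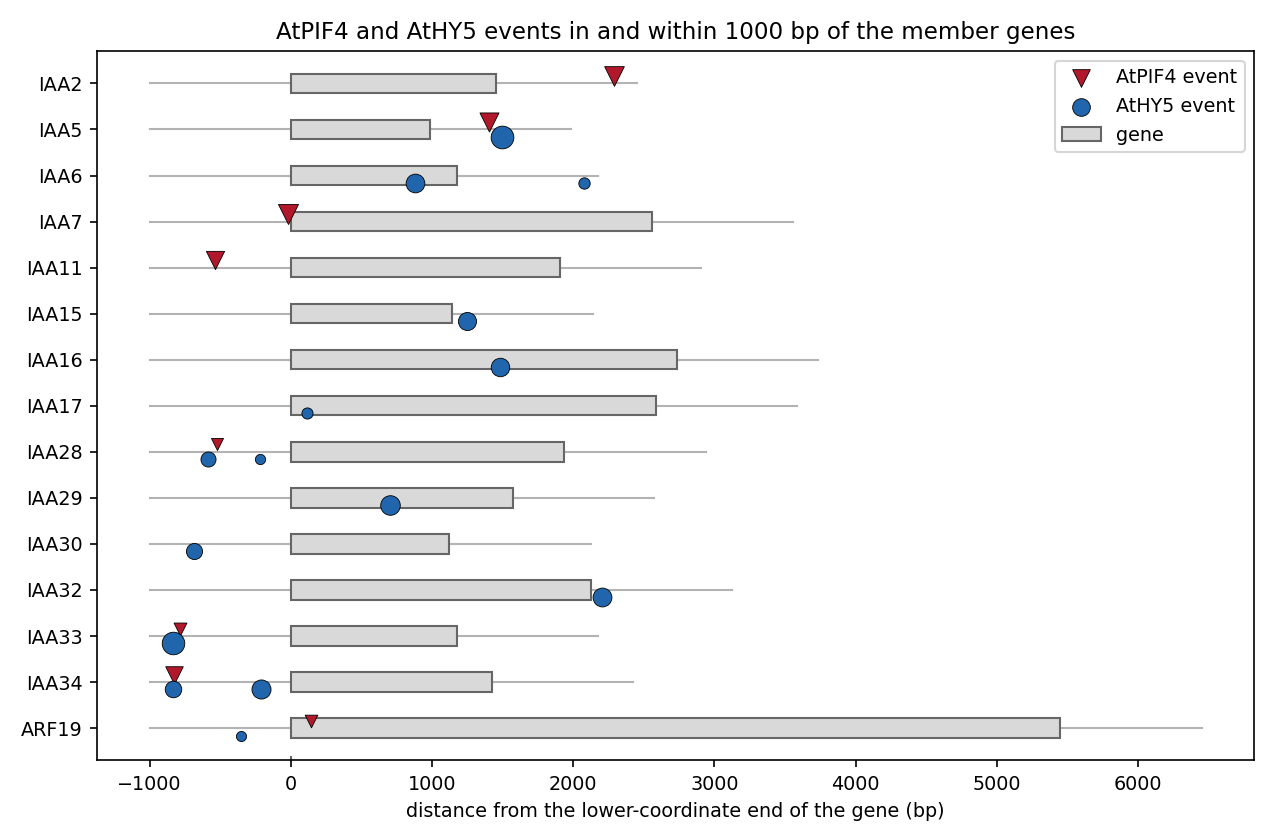
Events of AtPIF4 (triangles) and AtHY5 (circles) at the 15 members that have any, drawn to scale as distance in bp from the lower-coordinate end of each gene (grey bar), with 1000 bp on either side (line); a larger symbol has a higher percentile within its list. All 7 AtPIF4 events of Aux/IAA genes lie outside the gene bars, and IAA5, IAA28, IAA33 and IAA34 have an AtPIF4 and an AtHY5 symbol close together.

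The highest AtPIF4 percentiles belonged to IAA7 and IAA2, which are neighbours on chromosome 3. IAA7, also called AXR2, is a repressor whose stabilised form makes roots and hypocotyls resistant to auxin. Its AtPIF4 event at chr3:8194488-8194687 had a score of 193, higher than 70.5% of the list, and its centre lay 19 bp outside the gene. IAA2 is a small, rapidly auxin-induced member. Its AtPIF4 event at chr3:8182838-8183037 had a score of 183, higher than 67.3% of the list, 842 bp beyond the gene. Both events fall in the 12510 bp between these genes, at its opposite ends.

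IAA5, an auxin-induced member, followed with an AtPIF4 event of score 169 at chr1:5366820-5367019, higher than 61.9% of the list. The centre lay 422 bp from IAA5 in a gap of 799 bp, nearer to the neighbouring gene AT1G15590. IAA11 had an AtPIF4 event of score 154 at chr4:14141426-14141625, higher than 54.9% of the list. This event lies 538 bp from IAA11 in a gap of 1008 bp, and so nearer to the transporter gene ABCB23. IAA34 stood at 48.9% with a score of 144.1. IAA33 and IAA28 were low, with scores of 105 and 98 that exceeded 16.5% and 11.6% of the list. No AtPIF4 event at an Aux/IAA gene stood above the 70.5% of IAA7. The median of the best percentile was 54.9% over the 7 Aux/IAA genes, against 54.1% over all 6348 genes with an AtPIF4 event.

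For AtHY5, IAA5 and IAA33 stood apart from the other members. The IAA5 event at chr1:5366908-5367107 had a score of 681.9 and ranked 517 of 16825, higher than 96.9% of the list. Its centre lay 510 bp beyond the gene, in a gap of 799 bp, and so nearer to the neighbouring gene AT1G15590 than to IAA5. IAA33, a member without the canonical degron, had an event at chr5:23268983-23269182 whose score of 531 ranked 802 and exceeded 95.2% of the list. It lay 832 bp beyond the gene with no other gene within 1000 bp.

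The remaining best AtHY5 events were of middle or low rank. IAA29, a gene known to respond to shade and warmth, had an event inside the gene at chr4:15583937-15584136 with a score of 155, higher than 66.2% of the list. IAA34 followed with 142 (61.8%), IAA32 with 137 (59.8%), IAA6 with 135 (59.0%), IAA16 with 131 (57.1%) and IAA15 with 123 (53.3%). IAA30 had 100 (38.0%) and IAA28 had 90.6 (30.4%). The lowest among the 29 Aux/IAA genes was IAA17, also called AXR3, whose event inside the gene had a score of 65.6, higher than 6.74% of the list. The median of the best percentile was 59.0% over the 11 Aux/IAA genes and 58.5% over all 13079 genes with an AtHY5 event.

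**Figure D2:**
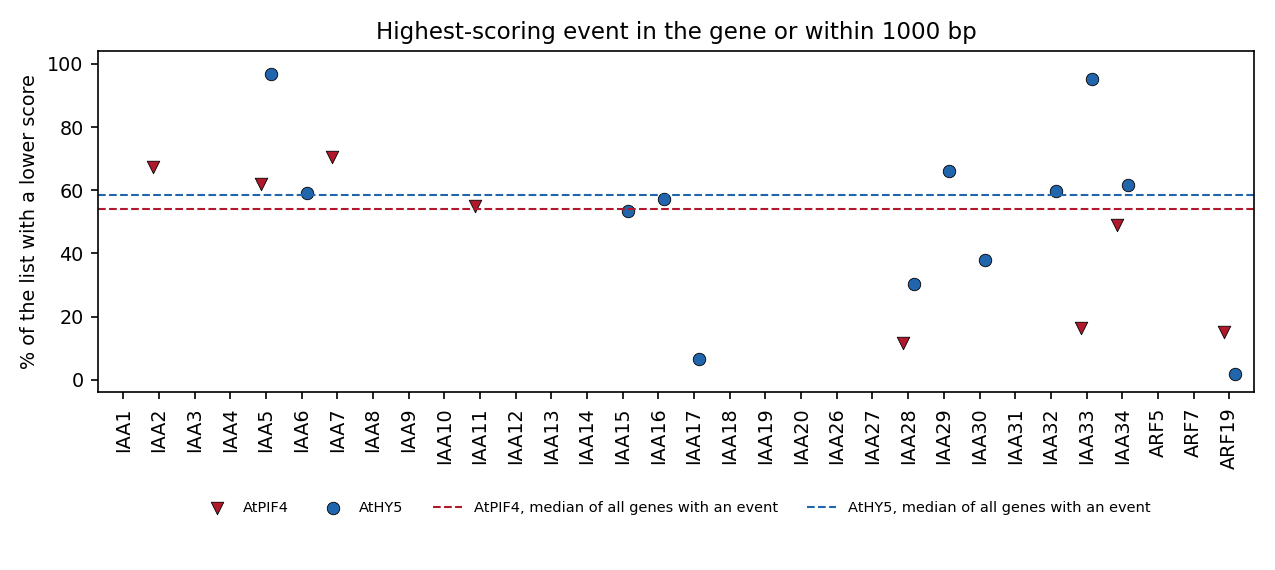
Percentile within its list of the highest-scoring AtPIF4 (triangle) and AtHY5 (circle) event of each of the 32 members, with no symbol where the window holds no event; dashed lines give the median over all genes with an event, 54.1% for AtPIF4 and 58.5% for AtHY5. Only the AtHY5 symbols of IAA5 and IAA33 stand above 90%.

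The 4 Aux/IAA genes with events of both proteins all carried them within 100 bp of each other, as did 3268 of the 4665 genes with both over the genome, or 11.9% of all protein-coding genes. At IAA34 the centres were 2 bp apart, with the AtPIF4 event at chr1:5181063-5181262 and the AtHY5 event at chr1:5181061-5181260. That pair lies inside the neighbouring gene GAT1_2.1, and IAA34 has a second AtHY5 event nearer by, 210 bp from its end and outside other genes. At IAA33 the centres were 46 bp apart, at IAA28 64 bp and at IAA5 88 bp. How alike the ranks within a pair were differed between genes. At IAA34 the AtPIF4 event exceeded 48.9% of its list, and the paired AtHY5 event, of score 103.9, exceeded 41.2%. At IAA33 and IAA5 the AtHY5 event was near the top of its list, while the AtPIF4 event exceeded 16.5% and 61.9% of its own. At IAA28, a repressor of lateral root initiation, both were low. Counted by event, 4 of 7 AtPIF4 events at Aux/IAA genes (57.1%) had an AtHY5 event within 100 bp, against 47.3% of the whole AtPIF4 list. Likewise 4 of 14 AtHY5 events (28.6%) had an AtPIF4 event so near, against 19.8% of the whole AtHY5 list.

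Events of both proteins lay mostly outside the Aux/IAA genes. Of the events in the window, 0 of 7 for AtPIF4 and 4 of 14 (28.6%) for AtHY5 were inside a member, against 55.9% and 56.5% over all genes. No AtPIF4 event lay inside any of the 29 Aux/IAA genes, a count of 0 that allows a share of up to 10.3% by a limit of 3 counts and up to 11.7% by the Wilson interval, while 13.7% of all protein-coding genes held one. The flanks of 1000 bp held an AtPIF4 event at 7 of 29, or 24.1% (12.2 to 42.1), against 11.4% of all genes. That share lies just below the interval, and events shared between neighbouring genes make such intervals too narrow. For AtHY5, 4 of 29 genes had an event inside, or 13.8% (5.50 to 30.6), against 30.3% of all genes and 32.0% at the shares of their length and gap classes. In the flanks AtHY5 had an event at 8 of 29, or 27.6%, against 25.9% of all genes. The 4 genes with an AtHY5 event inside were IAA6, IAA16, IAA17 and IAA29.

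Densities per kb rest on few events. Inside Aux/IAA genes there were 0 AtPIF4 events in 54.015 kb, against 0.0657 per kb inside all genes. The exact 95% Poisson interval, which leaves error in both tails, ran from 0 to 0.0683 per kb. Within 1000 bp of gene ends the density was 0.121 per kb (0.0485 to 0.249), against 0.0617 per kb for all genes. From 1000 to 2000 bp it was again 0.121 per kb, against 0.0633. From 2000 to 5000 bp it was 0.0517 per kb, against 0.0616. AtHY5 density was 0.0741 per kb inside (0.0202 to 0.190), against 0.171. In the 3 outer distance classes it was 0.172, 0.259 and 0.161 per kb, against 0.157, 0.164 and 0.160. The Poisson interval of each of these 8 values held the density of all genes. With so few events the intervals are wide, so they do not show that the densities are equal. Counted by gene, as given above, the AtPIF4 share of all genes lay outside the Wilson interval both inside genes and in flanks. No difference in density was tested.

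**Figure D3:**
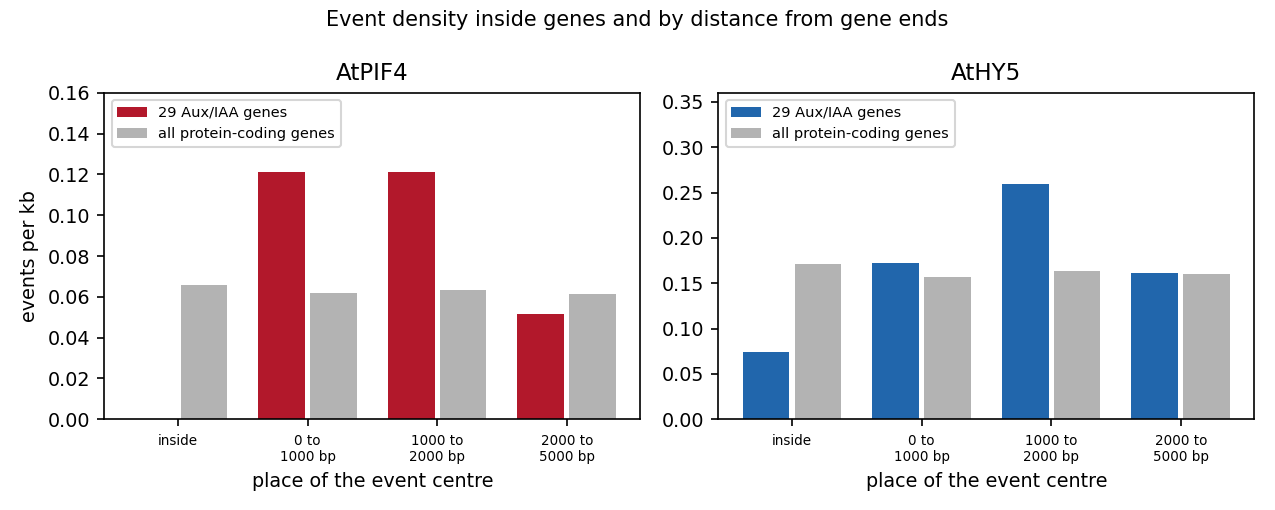
Events per kb (vertical axes, which differ in scale) inside genes and at 3 ranges of distance from the nearest gene end, for AtPIF4 (left) and AtHY5 (right), with the 29 Aux/IAA genes in colour beside all protein-coding genes in grey. The Aux/IAA bar is at 0 for AtPIF4 inside genes and at 0.121 per kb in both ranges out to 2000 bp, where all genes stand at 0.0617 and 0.0633.

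Counts moved with the window. Within 500 bp, 2 of 29 Aux/IAA genes had an AtPIF4 event (6.90%), against 18.7% of all genes. Within 2000 bp there were 14 of 29 (48.3%), against 31.5% of all genes and against 9.00 genes at the shares of their length and gap classes. Within 5000 bp, a window chosen after seeing the data, there were 19 (65.5%), against 50.6%. For AtHY5 the shares were 27.6% within 500 bp, 58.6% within 2000 bp and 89.7% within 5000 bp, against 39.8%, 59.9% and 80.5% of all genes. The AtPIF4 share thus lay below the genome in narrow windows and above it in wide ones. No interval was computed for the shares at 500, 2000 and 5000 bp, and the differences were not tested.

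**Figure D4:**
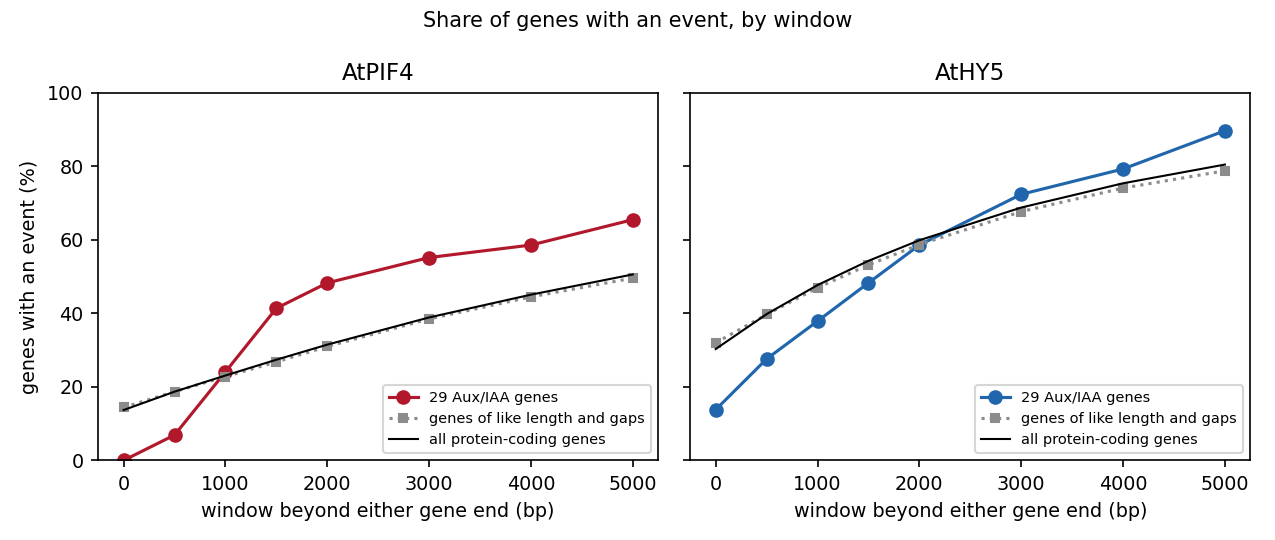
Share of genes with an event (vertical axis, percent) as the window beyond either gene end widens from 0 to 5000 bp, for AtPIF4 (left) and AtHY5 (right). The 5000 bp window was chosen after seeing the data. The line of the 29 Aux/IAA genes crosses that of all protein-coding genes near 1000 bp for AtPIF4 (24.1% and 23.1% there) and near 2000 bp for AtHY5 (58.6% and 59.9% there), and genes of like length and gaps follow all genes.

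Several events lay close to the edge of the 1000 bp window, on either side of it. Of the genes named first here, IAA5 and IAA6 also had events nearer by. Closest inside it was an AtHY5 event 902 bp from IAA6, with a score of 67 that exceeded 7.81% of the list. Closest outside were AtHY5 events 1008 bp from IAA5 and 1029 bp from IAA26, with scores of 111.1 and 103. IAA20, a member without the canonical degron, had strong events on both sides. On its lower-coordinate side an AtPIF4 event of score 640 at chr2:19306479-19306678, higher than 96.8% of the list, lay 1136 bp away. An AtHY5 event of score 399 was centred 1 bp from it. On the other side, 1088 bp away and inside the transporter gene ABCB4, lay an AtHY5 event of score 1091 that exceeded 98.7% of the list.

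IAA30, a close relative of IAA20, also had a pair of events beyond the window, on its lower-coordinate side. This pair, at 1486 bp for AtPIF4 and 1468 bp for AtHY5, was 18 bp apart, and the AtHY5 event at chr3:22994119-22994318 had a score of 534, higher than 95.3% of the list. Farther out, at 4324 bp, lay an AtPIF4 event whose score of 901 exceeded 98.2% of the list. At IAA31, the third of this branch, the nearest AtPIF4 event was 5033 bp away and the nearest AtHY5 event 1520 bp away. The events given here for IAA20 and IAA30 lie in spacers, except the one in ABCB4.

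The genes named as PIF targets had AtPIF4 events only at a distance. IAA19, also called MSG2, which acts in hypocotyl bending with ARF7, had its nearest AtPIF4 event 1393 bp from the gene at chr3:5262509-5262708. Its score of 229 exceeded 79.3% of the list, and the nearest AtHY5 event to the gene was 5481 bp away. IAA29 had AtPIF4 events 2098 and 3193 bp away on the same side, with scores of 378.4 and 124. The nearer of these, at chr4:15581135-15581334, exceeded 91.8% of the list. For the genes described as favoured by HY5, the nearest AtHY5 event was 2081 bp from IAA7, with a score of 100 (38.0%). It was 2869 bp from IAA14, with a score of 148.1 (64.0%), and inside the neighbouring gene NF-YB3. IAA14, also called SLR, is a repressor of lateral root initiation.

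**Figure D5:**
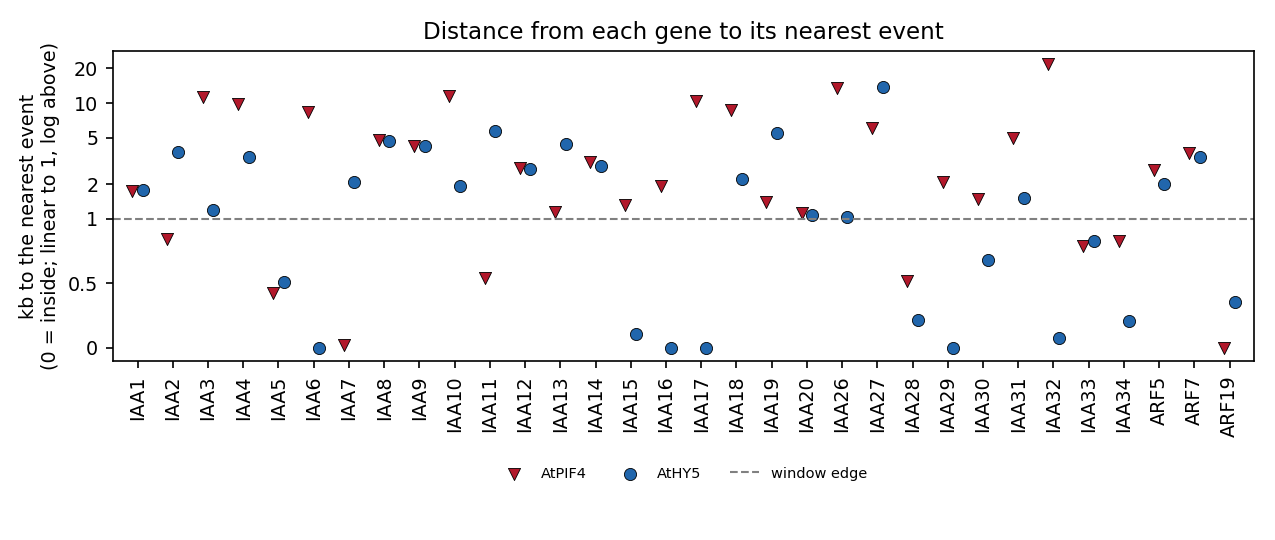
Distance in kb from each of the 32 members to its nearest AtPIF4 (triangle) and AtHY5 (circle) event, on an axis that is linear up to 1 kb and logarithmic above, with 0 for an event inside the gene and the window edge dashed. AtPIF4 distances of the 29 Aux/IAA genes run from 19 bp at IAA7 to 21535 bp at IAA32.

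Over the 29 Aux/IAA genes the nearest AtPIF4 event lay at a median of 2098 bp, against 4888 bp for all protein-coding genes. The nearest AtHY5 event lay at a median of 1520 bp, against 1165 bp. The members farthest from any AtPIF4 event were IAA32 at 21535 bp and IAA26, also called PAP1, at 13478 bp. PAP1 and PAP2 (IAA27) are named in the gene table as phytochrome-associated proteins. IAA27 was the member farthest from AtHY5 events, at 13773 bp.

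Along the family tree, events lay in most branches known from protein sequence. Over all protein-coding genes, 23.1% had an AtPIF4 event, 47.7% an AtHY5 event and 53.8% an event of either protein. With 1 to 4 genes per branch, the counts below do not set any branch apart from those shares, and none was tested. In the branch of IAA1 to IAA4, AtPIF4 had an event at 1 of 4 genes and AtHY5 at 0. IAA3, also called SHY2, a regulator of root meristem size, had its nearest AtHY5 event 1206 bp away inside AT1G04230 and no AtPIF4 event within 11209 bp. IAA4 had its nearest AtPIF4 event at 9837 bp and its nearest AtHY5 event at 3447 bp. Among IAA5, IAA6, IAA15 and IAA19, AtPIF4 had an event at 1 and AtHY5 at 3. Among IAA7, IAA14, IAA16 and IAA17 the counts were 1 and 2.

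IAA8, IAA9 and IAA27 had none, and the nearest events of IAA8 and IAA9 lay beyond 4000 bp. At IAA8 the nearest AtHY5 event, 4664 bp away, had a score of 447 that exceeded 93.5% of the list. The branch of IAA10 to IAA13, whose best known member IAA12 (BODENLOS) blocks ARF5 in the embryo, had 1 gene of 4 with an AtPIF4 event and 0 for AtHY5. The nearest AtPIF4 event to IAA12 was 2739 bp away, and its score of 325 exceeded 89.3% of the list. IAA13 had its nearest AtPIF4 event 1139 bp away inside SUVH2, and IAA10 its nearest AtHY5 event 1935 bp away inside SDD1. Of IAA18, IAA26 and IAA28, only IAA28 had any.

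Members that lack the canonical degron, and so are not degraded by auxin in the usual way, are IAA20 and IAA30 to IAA34. AtPIF4 events lay at 2 of these 6 (33.3%, 9.68 to 70.0) and AtHY5 events at 4 (66.7%, 30.0 to 90.3). Among the 23 others, AtPIF4 events lay at 5 (21.7%, 9.66 to 41.9) and AtHY5 events at 7 (30.4%, 15.6 to 50.9). The shares of all genes, 23.1% for AtPIF4 and 47.7% for AtHY5, lie inside the intervals of both groups, and the difference between the groups was not tested. All AtHY5 events of the 6 lay in flanks. The event at IAA32 lay inside the neighbouring gene AT2G01210, 76 bp from IAA32. IAA32 and IAA34, which act in the apical hook, both had an AtHY5 event.

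Aux/IAA genes form 3 pairs of direct neighbours, and the DNA between them borders both. The spacer of IAA2 and IAA7 held 2 AtPIF4 events and 1 AtHY5 event. The spacer of IAA14 and IAA1, 10732 bp long, held 1 of each, 15 bp apart, at chr4:8359152-8359351 for AtPIF4 and chr4:8359137-8359336 for AtHY5. Their scores of 107 and 69.9 exceeded 18.2% and 11.0% of the lists, and they lay 1745 and 1760 bp from IAA1. The spacer of IAA3 and IAA17, 6388 bp long, held 1 AtHY5 event of score 126 and 0 AtPIF4 events. Over all spacers of 5 to 15 kb between protein-coding genes, the densities were 0.0445 AtPIF4 and 0.108 AtHY5 events per kb. In the IAA2 and IAA7 spacer they were 0.160 and 0.0799 per kb, and in the IAA14 and IAA1 spacer 0.0932 each. In the IAA3 and IAA17 spacer they were 0 and 0.157 per kb, so the 3 spacers did not share 1 direction, and each value rests on 2 events at most.

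Of the ARF genes that carry IAA synonyms, ARF19 was the only one with events in the window. ARF5 and ARF7 had none. ARF19, an activator of lateral root formation, had an AtPIF4 event inside the gene with a score of 103 (15.1%) and an AtHY5 event with a score of 61 (1.75%) that lies inside AT1G19210. Farther out, the AtHY5 event 3774 bp from ARF7, inside AT5G20740, had a score of 1014.2 that exceeded 98.5% of the list. ARF5, also called MONOPTEROS, had 4 AtPIF4 and 5 AtHY5 events between 2012 and 4981 bp on 1 side, all in the spacer.

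Genes for the partners of Aux/IAA proteins were counted in the same way, with 23.1% of all genes having an AtPIF4 event and 47.7% an AtHY5 event. Among the 6 receptors, AtPIF4 events lay at 2 and AtHY5 events at 3. AFB4 led both, with an AtPIF4 score of 238 (80.8%) and an AtHY5 score of 215.6 (78.9%), and AFB1, TIR1 and AFB5 had the others. Among the 23 ARF genes, AtPIF4 events lay at 5 (21.7%) and AtHY5 events at 9 (39.1%). ARF11 had the highest AtPIF4 score at 353 (90.8%), followed by ARF16 with 124 and ARF9 with 120. ARF17 had the highest AtHY5 score at 249.7 (83.3%), followed by ARF9 with 247 and ARF3 with 163.

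Of the 5 TOPLESS corepressor genes, 3 had an AtPIF4 event, namely TPR4 with 251, TPL with 163 and TPR1 with 124, and 3 an AtHY5 event, namely TPR2 with 201, TPL with 170 and TPR1 with 131. The other early auxin response families were counted too. SAUR genes, a family that encodes small growth-promoting proteins, were taken by a symbol or synonym made of SAUR and a number. Whether each gene so named belongs to the family was not checked. Of the 80 found, AtPIF4 events lay at 14 (17.5%) and AtHY5 events at 29 (36.2%). Length and gap classes were not set beside these family counts. Among all genes of 1146 bp or less the shares were 18.0% for AtPIF4 and 36.9% for AtHY5. Among the genes so named, SAUR71 with 409, SAUR59 with 375 and SAUR21 with 315.3 led for AtPIF4. For AtHY5, SAUR18 with 768, SAUR52 with 631.1 and SAUR25 with 613 led. The gene taken as SAUR21 is AT5G01830, whose AtPIF4 event lay inside it, 836 bp from the nearest end. AT5G01830 is thus longer than 1146 bp, and its place in the family is uncertain. GH3 genes, whose enzymes join auxin and related acids to amino acids, were taken by a symbol or synonym made of GH3, a point and a number. Any GH3 gene without such a name was not counted. Of the 9 found, AtPIF4 events lay at 2 and AtHY5 events at 8 (88.9%). GH3.17 led for AtHY5 with 2759.1 (99.8%), then GH3.3 with 641.3 and GH3.9 with 518.8. GH3.2 with 228 and GH3.3 with 225.5 were those with an AtPIF4 event. The AtHY5 share was thus 37.9% in Aux/IAA genes and 88.9% in the 9 GH3 genes counted, which are few. The difference was not tested.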

How the data were processed

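The submitters' processing notes name Trim Galore, Bowtie2 and the build TAIR10, without versions. Per the file headers, the deposited lists are GEM event calls. The score of each event was deposited by the authors, with its definition, threshold and normalization not given in the sources used here. Coordinates are 1-based and those of the lists. Genes came from a RefSeq table of TAIR10.1, which gives no strand or exons, so its coordinates are not printed and gene starts and ends were not told apart. As a check of the match, 63.1% of AtPIF4 and 65.3% of AtHY5 events lay inside genes as deposited, against 55.3% to 57.9% after shifts of 1000 or 2000 bp.

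Events were assigned to genes with Python 3.11.15 and NumPy 2.4.6, a step checked on simulated events. A neighbouring gene can share an event, so genes are not independent. Members and lists were chosen with earlier results of these data known. Member counts were set beside the shares of all genes and of genes in the same length and gap classes, with no test. In each list the 10 members with the highest percentiles were to be named, and 3 genes per pathway list. Family branches and degron groups are from general knowledge. No sequence was used here.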

Additional observations from a re-analysis of the deposited data

How the results depend on the processing

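Counts over the 32 members moved with the window and with the score threshold, and so did the share of all genes. Members with an AtPIF4 event numbered 8. They were 3 with 500 bp (18.7% of all genes), 15 with 2000 bp (31.5%), 1 with the gene body only (13.7%) and 4 with events above the median score (12.6%). Members with an AtHY5 event numbered 12. They were 4 with the gene body only (30.3%) and 4 with the AtHY5 list at the length of the AtPIF4 list (23.0%). Members with events of both numbered 5. They were 1 with 500 bp (13.2%), 10 with 2000 bp (25.2%), 0 with the gene body only (9.00%), 1 above the median score (7.64%) and 3 at equal list length (10.8%). Those with both centres within 100 bp numbered 4, and were 2 at 50 bp (9.79%) and 1 above the median score (5.56%). A window of 5000 bp, chosen after seeing the data, gave 22 for AtPIF4 (50.6%), 29 for AtHY5 (80.5%) and 20 for both (45.6%). Flanks alone, any overlap of the event interval and leaving out the ARF genes kept the AtPIF4, AtHY5 and both-protein counts within 1.5 times. No paired analysis was possible because each protein had 1 library. Depth was unknown, and the cause of these movements beyond window size and list length was not tested.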
